A study of Mus musculus with 6 samples.

Results

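Notch signalling is the route by which a cell reads the ligands on its neighbours, and 10 of its genes were followed here in cultured cerebellar granule neurons (CGNs). The 10 genes were taken by name from the 55341 gene symbols of the count tables. They were the ligands Jag1, Jag2 and Dll1, the receptors Notch1, Notch2 and Notch3, and the targets Hes1, Hes5, Hey1 and Hey2. All 10 were found and all 10 passed the filter on low counts, which left 16729 genes for testing.

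A ligand on one cell binds a Notch receptor on another, and proteases then release the receptor's intracellular domain. That domain enters the nucleus, joins the DNA-binding protein RBPJ and a Mastermind coactivator, and switches on genes of the HES and HEY families. HES and HEY proteins are transcriptional repressors best known for holding neural progenitors and glia back from neuronal differentiation. In the cerebellum, receptors and ligands of the pathway are found in granule neuron progenitors and in Bergmann glia, the radial astroglia of the cerebellar cortex.

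The RNA came from 6 cultures, 3 with the vehicle DMSO and 3 with GSK-126, a small-molecule inhibitor of EZH2. EZH2 is the enzyme that places the repressive histone mark H3K27me3. Granule neuron progenitors of CD1-IGS mice at P6 to P8 were purified on a Percoll gradient and plated, AraC was added to every culture at DIV2 (day in vitro) to stop dividing cells, DMSO or GSK-126 followed at DIV3, and RNA was taken at DIV5. The dose used at DIV3 was not given in the sources used here, the labels name the tissue as cerebellum, and each replicate is a culture of pooled litters, so no library stands for 1 animal.

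Counts on genes ranged from 7407189 to 13092763 per library, and another 58.7% to 60.7% of the listed reads named no gene. Libraries of the same replicate number deviated together from their group means, with correlations across genes of 0.513 to 0.663. Between different numbers they were at most 0.0122. Deviations from a group mean cancel out within the group, so positive same-number values push the others down, and this contrast is partly built in. The fit without the replicate number is therefore given beside a fit with that number as a block, and the interval printed for a gene is that of the blocked fit. Markers of granule neurons were abundant, with summed levels of 3281 to 5132 CPM (read counts scaled to library size with TMM factors) with DMSO. Of the progenitor markers, Atoh1 was at 0 to 0.754 CPM and Gli1 at 0.115 to 1.12 CPM over the 6 libraries, while the cell cycle genes Mki67 and Ccnd1 stood at 74.4 to 136 CPM and 121 to 229 CPM. The cultures also held other cell types: the 10 astroglial markers summed to 2859 to 8410 CPM with DMSO and the 8 mural and fibroblast markers to 5226 to 7397 CPM. In such bulk RNA, fewer cells of a type and less RNA per cell cannot be told apart.

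The stretches upstream of 2 target genes are shown first, because RBPJ binding sites are the feature through which a HES or HEY gene is tied to the pathway. Promoter windows of 300 bases (from 250 before to 50 after the start site) were taken from RefSeq on GRCm38.p6 for 8 of the 10 genes, Hes1 and Hey1 not among them. Both strands were searched for the RBPJ core TGGGAA and for the longer GTGGGAA, which contains the core. Among the 9 windows (Dll1 has 2), only those of Hes5 and Hey2 held either motif. Each held GTGGGAA 2 times, once on each strand. Of all 32851 windows, 6.38% held GTGGGAA at least once and 0.256% (84 windows) held it 2 times or more. For the core TGGGAA the shares were 25.6% and 3.79%. The 250 bases upstream of the Hes5 start (chr4:154960673-154960922, GRCm38.p6, plus strand) are printed with the core in capitals, as read from either strand.
Hes5 upstream: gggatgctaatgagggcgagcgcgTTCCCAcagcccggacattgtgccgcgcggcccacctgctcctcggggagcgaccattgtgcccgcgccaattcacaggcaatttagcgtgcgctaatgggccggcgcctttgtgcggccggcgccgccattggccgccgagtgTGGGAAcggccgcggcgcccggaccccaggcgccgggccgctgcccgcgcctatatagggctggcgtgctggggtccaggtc

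For Hey2, on the minus strand of chromosome 10, short stretches around both matches show the same 7-letter motif in capitals. The first lies at chr10:30842973-30843002, with its match at positions -207 to -201 from the start site, and the second at chr10:30842770-30842799, with its match at -4 to 3. In Hes5 the matches lie at -226 to -220 and at -83 to -77.
Hey2 distal: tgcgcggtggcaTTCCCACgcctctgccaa
Hey2 at start: ctgggctgcagcGTGGGAAagaacctccag

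The HES and HEY proteins themselves bind E-boxes and N-boxes. The E-box CACGTG was in none of the 9 windows, against 7.15% of all windows. The N-box CACNAG was found 3 times in the Notch1 window, where 2 matches on opposite strands overlap (-3 to 3 and -1 to 5). It was found 2 times in that of Notch3, and once each in those of Notch2 and Dll1, against 42.5% of all windows with at least 1. These matches describe the letters of the windows and say nothing of binding in these cells.

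Of the 10 genes, only Jag1 passed the test for GSK-126 against DMSO, and only in the fit with the replicate block. Without the block, edgeR's quasi-likelihood test called 0 of the 10 genes and 0 of 16729 (0%) at a Benjamini-Hochberg adjusted p under 0.05. At an unadjusted p under 0.05 it called 0 of the 10, against 3.98% of all genes (665), and DESeq2 without the block called 0 of the 10 and, of all genes, 20 higher and 1 lower. Counts were also simulated from the blocked fit, with its replicate differences and spread. On these the fit without the block called none of the genes that were given a change. Its lack of calls thus does not show that a gene was unchanged. With the block edgeR called 8.44% of all genes, 3.35% higher and 5.09% lower, and of the 10 it called 1 higher and 0 lower. The median log2 fold change of the 10 was -0.10 in that fit, beside -0.0056 for all genes tested. In none of the 10 did the 3 GSK-126 libraries stand clear of the 3 DMSO libraries, while 9.44% of all genes did so.

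**Figure D1:**
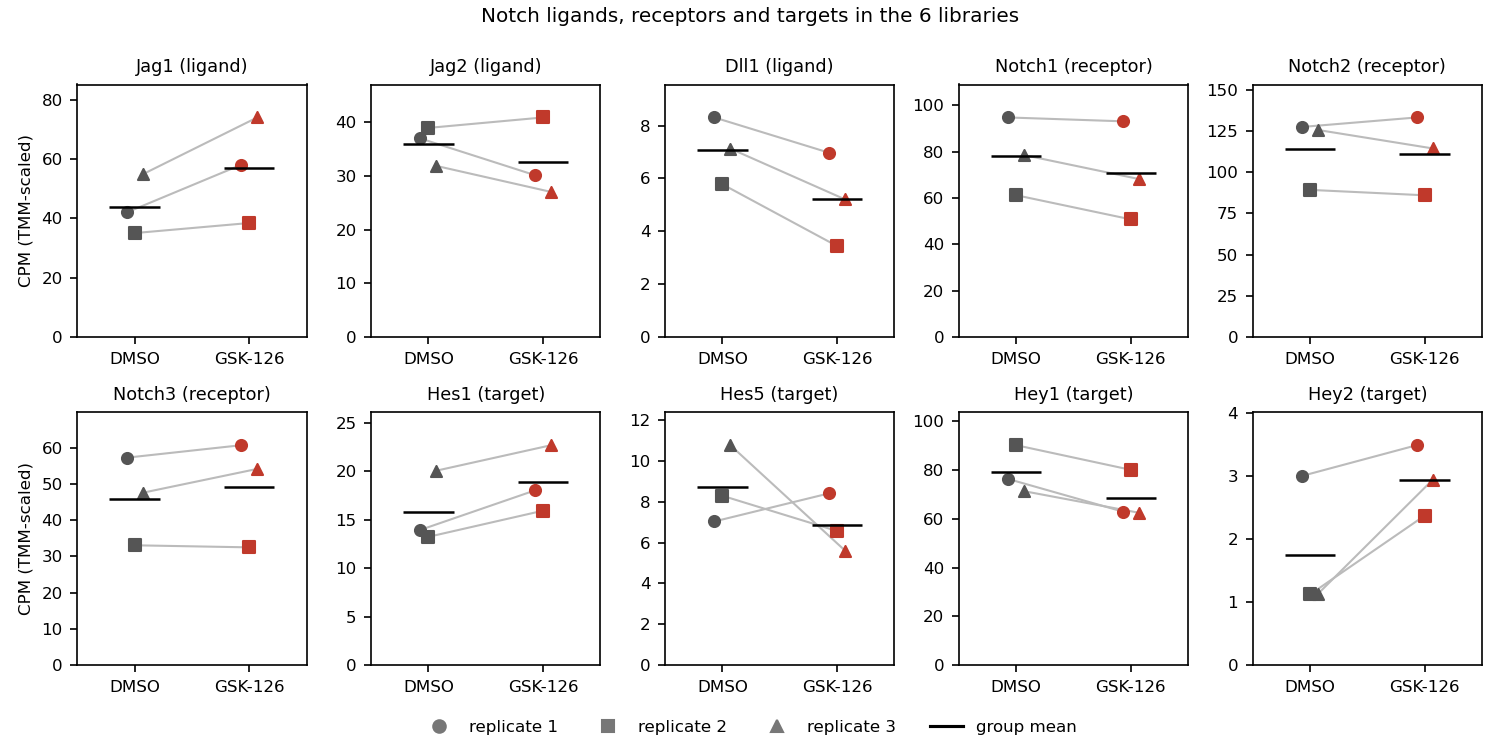
Level of each of the 10 genes in CPM (y axis, from 0, one scale per gene) in the DMSO and GSK-126 libraries; grey lines join libraries of one replicate number and black bars are group means. Lines rise in all 3 pairs for Jag1, Hes1 and Hey2 and fall in all 3 for Dll1, Notch1 and Hey1, and the groups overlap in every panel.

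Within pairs the directions were mixed. Jag1, Hes1 and Hey2 were higher with GSK-126 in 3 of 3 pairs, as were 19.5% of all genes, and Dll1, Notch1 and Hey1 were lower in 3 of 3, as were 22.8%. Together, 6 of the 10 kept 1 direction in every pair, against 42.3% of all genes. Each role group was split: 1 of 3 ligands, 1 of 3 receptors and 2 of 4 targets had a positive fold change, in the fit without the block and in the fit with it.

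Among the ligands, Jag1 (ENSMUSG00000027276.7, chromosome 2, 137081456 to 137116644, minus strand, GRCm38) encodes Jagged1, a transmembrane ligand used by astroglia and vascular cells among others. The authors count Jag1 among the progenitor markers of CGNs. They report that such markers, Jag1 among them, did not fall normally where the gain of H3K27me3 failed. Yet their example tracks list Jag1 as a gene whose H3K27me3 stays unchanged over days in culture. In their H3K27me3 profiles of treated cultures, GSK-126 began earlier than here. The level of Jag1 in the DMSO libraries was 42.0, 35.1 and 54.8 CPM for replicates 1, 2 and 3. With GSK-126 it was 58.1, 38.5 and 74.0 CPM. Each GSK-126 library lay above its own partner, but replicate 2 with GSK-126 lay below both other DMSO libraries. The log2 ratios of the pairs were 0.46, 0.13 and 0.43. In edgeR's quasi-likelihood fit with the block, Jag1 rose by 0.35 on the log2 scale (95% interval 0.13 to 0.57, Benjamini-Hochberg adjusted p = 0.0412). Without the block the log2 fold change was 0.37 with a standard error of 0.26 (edgeR adjusted p = 0.953). The call with the block was lost without replicate 1 (edgeR adjusted p = 0.246) and without replicate 3 (edgeR adjusted p = 0.173). It was kept without replicate 2 (edgeR adjusted p = 0.0237), and DESeq2 with the block gave an adjusted p of 0.109. The summed markers of mural cells and fibroblasts were higher with GSK-126 in each pair, going from 5226, 6126 and 7397 CPM to 6804, 6688 and 8207 CPM. With GSK-126 the replicates stood in the same order in this sum as for Jag1, replicate 3 highest and replicate 2 lowest. With DMSO the order differed: replicate 2 lay above replicate 1 in this sum and below it for Jag1. Of the 8 mural and fibroblast markers, 7 had a positive fold change with the block. Called higher were 4 (Pdgfrb, Acta2, Tagln and Col1a2), and 0 were called lower. The sums of the progenitor (mostly cell cycle genes like Ccnd1), oligodendrocyte lineage and microglial markers were also higher with GSK-126 in 3 of 3 pairs. The progenitor sum had the replicate order of Jag1 with DMSO but not with GSK-126, where replicate 1 lay above replicate 3. In the oligodendrocyte lineage and microglial sums replicate 1 lay above replicate 3 in both groups, unlike Jag1. The part of these cells in the result was not tested.

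Jag2 (ENSMUSG00000002799.6, chromosome 12, 112907819 to 112929776, minus strand) encodes the other Jagged ligand. With DMSO it stood at 36.9, 38.9 and 31.8 CPM, and with GSK-126 at 30.1, 40.8 and 27.0 CPM. The groups overlapped and the pairs did not share a direction, since replicate 2 was slightly higher with GSK-126 and the other pairs lower. With the block its log2 fold change was -0.15 (95% interval -0.40 to 0.10, edgeR adjusted p = 0.514). The order of the libraries was nearly the mirror image of that of Jag1: replicate 3 with GSK-126 held the most Jag1 and the least Jag2, and both libraries of replicate 2 held the least Jag1 and the most Jag2. This contrast was noticed after the values were seen and was not tested.

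Dll1 (ENSMUSG00000014773.13, chromosome 17, 15367354 to 15376872, minus strand) encodes Delta-like 1, a ligand carried by newly formed neurons during neurogenesis. It was the scarcest of the ligands, with 32 to 92 counts per library. The DMSO libraries held 8.31, 5.78 and 7.13 CPM and the GSK-126 libraries 6.97, 3.45 and 5.21 CPM. All pairs were lower with GSK-126, with log2 ratios of -0.24, -0.67 and -0.42, yet the groups overlapped. The blocked log2 fold change was -0.46, and its 95% interval of -0.96 to 0.04 included 0 (edgeR adjusted p = 0.276). Over 867 bp its exons overlap those of A930024N18Rik on the opposite strand. The strand setting of the counting is not given in the sources used here, so it cannot be told how reads of that stretch were assigned.

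None of the receptors was called, and all 3 were uneven between replicate numbers. Notch1 (ENSMUSG00000026923.15, chromosome 2, 26457903 to 26516663, minus strand) encodes the receptor of neural progenitors and many other cells. It stood at 94.8, 61.3 and 78.6 CPM with DMSO and at 93.2, 50.8 and 68.3 CPM with GSK-126. The pairs were lower with GSK-126 by small amounts, with log2 ratios of -0.03, -0.27 and -0.20, while replicates 1 and 2 lay far apart in both groups. With the block the log2 fold change was -0.16 (95% interval -0.35 to 0.03, edgeR adjusted p = 0.315). Of its exons, 1482 bp overlap opposite-strand exons of 0610009E02Rik and Gm13568.

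Notch2 (ENSMUSG00000027878.11, chromosome 3, 98013527 to 98150361, plus strand) encodes a receptor found in granule neuron progenitors and glia. It had the most counts of the 10 genes in 5 of 6 libraries, Hey1 exceeding it in DMSO replicate 2. Its level was 127, 89.2 and 126 CPM with DMSO and 133, 85.9 and 114 CPM with GSK-126. Replicate 2 was again the low one in both groups, and the pairs did not share a direction. With the block the log2 fold change was -0.04 and its 95% interval, -0.21 to 0.13, was the narrowest of the 10 (edgeR adjusted p = 0.827). On the same strand 541 bp of its exons are shared with Gm42820.

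Notch3 (ENSMUSG00000038146.8, chromosome 17, 32120820 to 32166852, minus strand) encodes the receptor best known from mural cells of blood vessels, and glia use it too. The DMSO libraries held 57.3, 33.1 and 47.6 CPM and the GSK-126 libraries 60.8, 32.5 and 54.2 CPM. The order of the replicates was the same in both groups and the pair of replicate 2 was nearly level. Its log2 fold change with the block was 0.09 (95% interval -0.13 to 0.30, edgeR adjusted p = 0.692). Exons of Gm17276 on the opposite strand overlap 488 bp of it.

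None of the targets passed the test; the fold changes of Hes1 and Hey2 were positive and those of Hes5 and Hey1 negative. Hes1 (ENSMUSG00000022528.8, chromosome 16, 30064384 to 30067796, plus strand) encodes a repressor that oscillates in neural progenitors. Its level was 14.0, 13.2 and 20.1 CPM with DMSO and 18.0, 15.9 and 22.7 CPM with GSK-126. Each pair was higher with GSK-126, with log2 ratios of 0.36, 0.26 and 0.17, and DMSO replicate 3 stood above 2 of the 3 GSK-126 libraries. With the block the log2 fold change was 0.27, with a 95% interval of -0.04 to 0.58 (edgeR adjusted p = 0.312).

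Hes5 (ENSMUSG00000048001.7, chromosome 4, 154960923 to 154962371, plus strand), the gene whose upstream bases are printed above, encodes the HES repressor most often used as a readout of Notch in neural stem cells and glia. It had 42 to 124 counts per library. The DMSO libraries held 7.04, 8.30 and 10.8 CPM and the GSK-126 libraries 8.41, 6.57 and 5.61 CPM. Its pairs went opposite ways, with log2 ratios of 0.24, -0.32 and -0.88, and replicate 3 had the most with DMSO and the least with GSK-126. With the block the log2 fold change was -0.33 (95% interval -0.82 to 0.17, edgeR adjusted p = 0.467). Gm20421 on the opposite strand overlaps 433 bp of its 1363 bp of exon.

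Hey1 (ENSMUSG00000040289.8, chromosome 3, 8663359 to 8667256, minus strand) encodes a HEY repressor that many Notch-responsive cells share, and per length it was the most abundant of the 10. It stood at 76.4, 90.2 and 71.4 CPM with DMSO and at 63.0, 80.1 and 62.5 CPM with GSK-126. The 3 pairs were lower by similar amounts, with log2 ratios of -0.28, -0.17 and -0.19, and replicate 2 was high in both groups. With the block the log2 fold change was -0.21 and its 95% interval, -0.39 to -0.03, lay below 0, but the adjusted p of edgeR's test was 0.151. At an unadjusted p under 0.05 the blocked fit called Hey1 and Jag1 of the 10, against 21.5% of all genes.

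Hey2 (ENSMUSG00000019789.9, chromosome 10, 30832359 to 30842801, minus strand) encodes a close relative of Hey1 that is best known from the heart and vessels. It was counted only 12 to 46 times per library. The DMSO libraries held 3.00, 1.12 and 1.13 CPM and the GSK-126 libraries 3.49, 2.37 and 2.94 CPM. The DMSO libraries of replicates 2 and 3 were the lowest of the 6, while DMSO replicate 1 stood among the GSK-126 libraries. Its blocked log2 fold change of 0.82 was the largest of the 10 and also the least precise (95% interval -0.04 to 1.68, edgeR adjusted p = 0.256). Hes5 and Hey2 share the motif pair in their windows. Their fold changes had opposite signs, but neither passed the test and each blocked interval held both signs. Any tie between the motifs and the fold changes was not tested.

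Without the block, the log2 fold changes of the ligands beside Jag1 were -0.14 for Jag2 (standard error 0.19) and -0.43 for Dll1 (0.31). Those of the receptors were -0.14 for Notch1 (0.24), -0.04 for Notch2 (0.20) and 0.10 for Notch3 (0.27). Those of the targets were 0.26 for Hes1 (0.23), -0.34 for Hes5 (0.26), -0.21 for Hey1 (0.15) and 0.77 for Hey2 (0.48). The edgeR adjusted p of these 9 genes lay between 0.953 and 0.984, and the signs were those of the blocked fit.

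**Figure D2:**
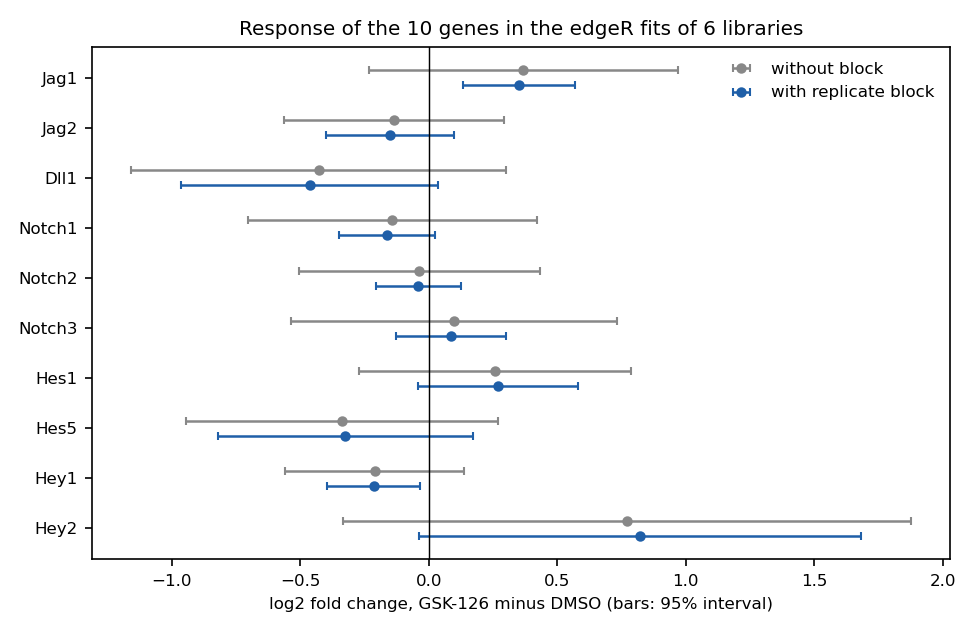
Log2 fold change of each of the 10 genes, GSK-126 minus DMSO (x axis), with 95% intervals, from edgeR's fits without the replicate block (grey) and with it (blue). The interval of every gene spans 0 without the block, and with it those of Jag1 (0.13 to 0.57) and Hey1 (-0.39 to -0.03) do not.

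Levels of different genes were compared per exon length, as RPKM, the CPM divided by the kilobases of exon of the gene. The full exon length was used, also for Dll1, Notch1, Notch2, Notch3 and Hes5, whose exons partly overlap another gene. How reads of those stretches were assigned is not known, which limits the comparison for these genes. By mean level with DMSO the order was Hey1 (24.3 ± 3.00, SD, n = 3), Notch2 (10.6 ± 1.99), Hes1 (7.74 ± 1.84), Jag1 (7.54 ± 1.72), Hes5 (6.39 ± 1.40), Notch3 (5.69 ± 1.51), Notch1 (5.50 ± 1.18), Jag2 (5.15 ± 0.524), Dll1 (1.68 ± 0.299) and Hey2 (0.381 ± 0.236). From Notch2 down to Jag2 the ranges of neighbours overlapped, so that the order of neighbours is not set by these libraries. Genes further apart in this order could be clear of each other. The lowest DMSO value of Notch2 (8.28) lay above the highest of Hes5 (7.91), and the lowest of Jag1 (6.02) above the highest of Jag2 (5.58). Hey1 lay above Notch2 in every DMSO library (21.9 to 27.6 against 8.28 to 11.8), Dll1 lay below Jag2, and Hey2 lay below Dll1, each without overlap. The mean level of Hey1 was 63.8 times that of Hey2 on this scale. Of the Jagged ligands, Jag1 had the higher level per length in each of the 6 libraries, at 6.02 to 9.41 RPKM against 4.57 to 5.58 RPKM with DMSO and at 6.60 to 12.7 RPKM against 3.87 to 5.86 RPKM with GSK-126.

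**Figure D3:**
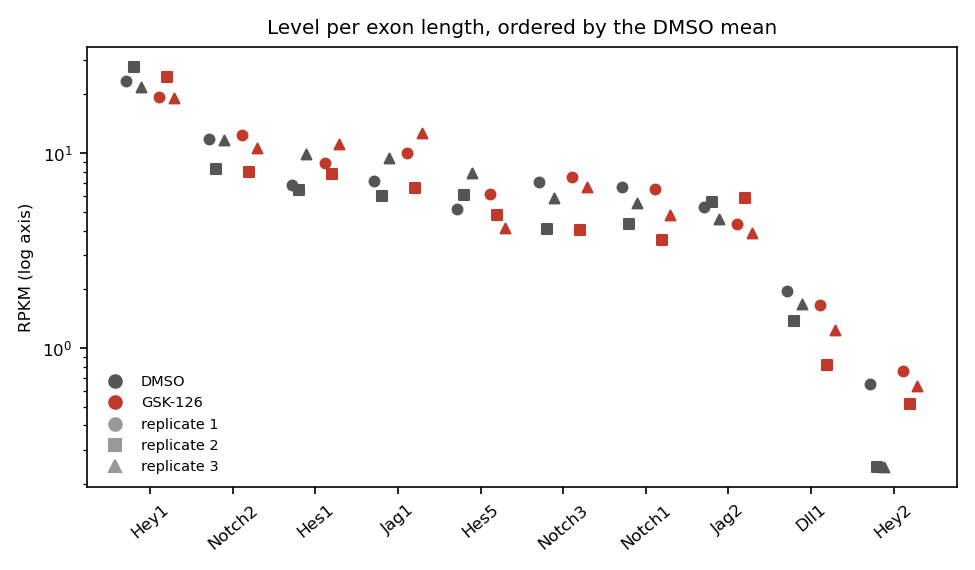
Level of the 10 genes per exon length (y axis, log scale, RPKM) in the 6 libraries, ordered by the DMSO mean; colour gives the treatment and the marker shape the replicate. Hey1 stands at the top (19.1 to 27.6), 7 genes share a band, and Dll1 and Hey2 lie below it.

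For several of the genes the replicate numbers lay further apart than the treatments. Both libraries of replicate 2 lay below the other 4 for Jag1, Notch1, Notch2 and Notch3, a pattern that 18.3% of all genes had, and above them for Jag2 and Hey1, as did 17.7%. Both libraries of replicate 1 were the highest for Notch1, Notch2, Notch3 and Hey2 (13.6% of all genes), and both of replicate 3 for Hes1 (8.54%). None of the 10 had both libraries of replicate 1 or of replicate 3 at the bottom, as 10.6% and 7.63% of all genes did. The sums of the astroglial, oligodendrocyte lineage and microglial markers had the same replicate order as the 3 receptors. For replicates 1, 2 and 3 the oligodendrocyte lineage sum was 737, 427 and 588 CPM (DMSO) and 752, 491 and 674 CPM (GSK-126). In the same order the microglial sum was 320, 149 and 225 CPM (DMSO) and 373, 205 and 277 CPM (GSK-126). The astroglial sum, led by Gfap, came to 8410 (DMSO) and 8711 CPM (GSK-126) in replicate 1. It came to 2859 and 2709 CPM in replicate 2 and to 4747 and 4677 CPM in replicate 3. Between treatments this sum differed little within a pair, and 1 of its 10 genes was called with the block (Gdf10, higher). The granule neuron sum, by contrast, was highest in replicate 2. It was lower with GSK-126 in every pair, and 4 of its 7 genes were called lower with the block and 0 higher. The part of any of these cell types in the levels of the Notch genes was not tested.

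**Figure D4:**
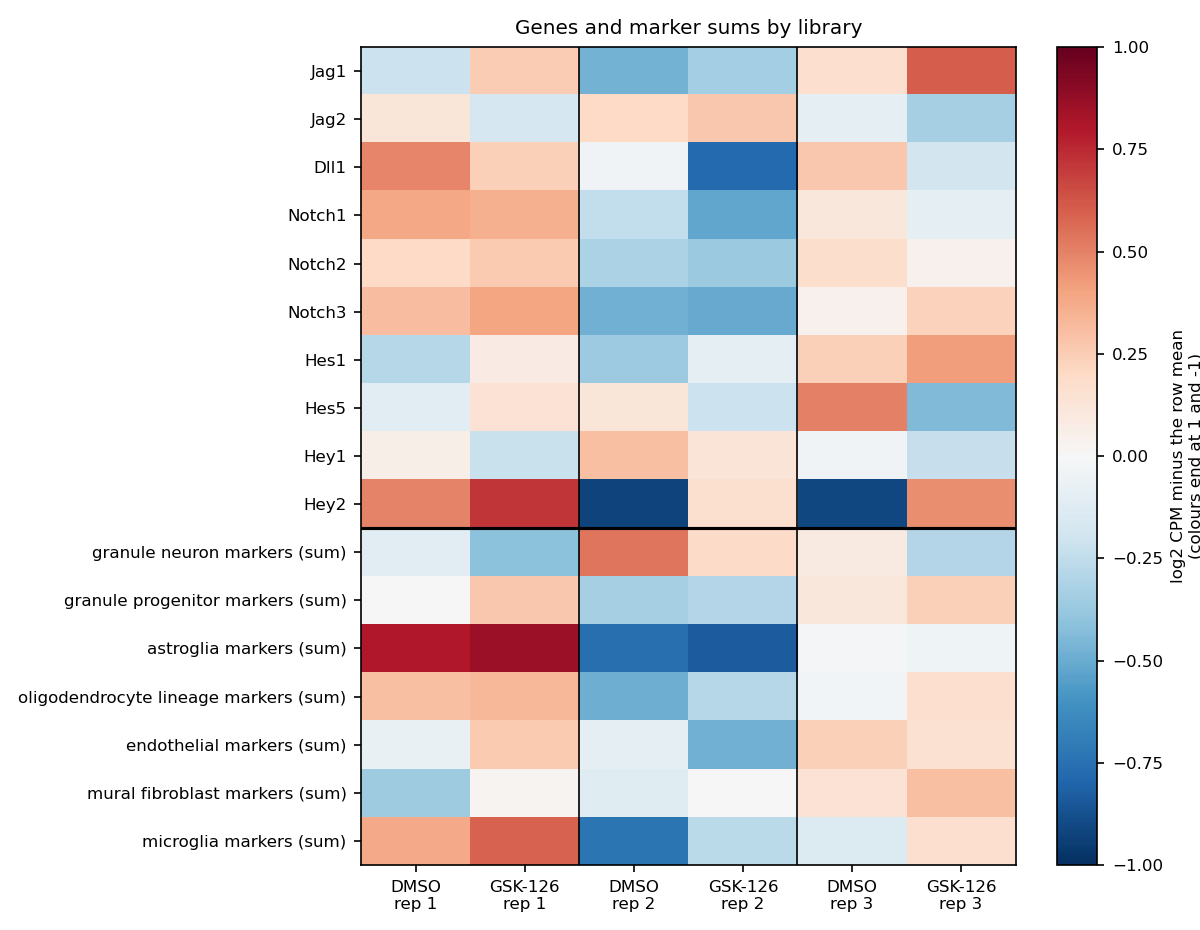
Log2 CPM minus the row mean (colour, ending at 1 and -1) of the 10 Notch genes and of the summed markers of 7 cell classes in the 6 libraries, arranged by replicate number. Notch1, Notch2 and Notch3 and the astroglial, oligodendrocyte lineage and microglial sums are red in replicate 1 and blue in replicate 2. Jag2, Hey1 and the granule neuron sum are red in both libraries of replicate 2.

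The sums of the remaining classes are given for completeness. Progenitor markers, led by Ccnd1, summed to 305 to 415 CPM with DMSO and 314 to 462 CPM with GSK-126, with 0 of 5 tested genes called. This sum was mostly that of cell cycle genes such as Ccnd1 and Mki67, which any dividing cell can express. Atoh1 and Gli1 reached at most 0.754 and 1.12 CPM. Endothelial markers, led by Cdh5, summed to 72.0 to 90.9 and 55.2 to 92.8 CPM, with 0 of 6 called and Cldn5 at 0 to 0.910 CPM. Oligodendrocyte lineage markers, led by Mbp, summed to 427 to 737 and 491 to 752 CPM, with 1 of 7 called higher. Microglial markers, led by C1qa, summed to 149 to 320 and 205 to 373 CPM, with 6 of 6 fold changes positive and 1 of 6 called higher. The most abundant granule neuron marker was Zic1 and the most abundant mural and fibroblast marker was Col1a1. Every marker had counts in at least 1 library.

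The wider pathway was read from a list of 46 further genes, of which 39 passed the filter. Without the block edgeR called none of it, at an adjusted or an unadjusted p under 0.05, and neither did DESeq2. With the block, 4 of 39 were called lower (background 5.09%) and 0 higher (background 3.35%), and the median log2 fold change was -0.09. The fold change was negative for 27 of the 39, for 7 of 7 genes of the nuclear complex (1 called lower) and for 10 of 12 genes of trafficking and turnover (3 called lower), beside 8509 of 16729 genes in all. These role groups were singled out after their values were seen and were not tested. Of the 10 processing proteases, 4 glycosylation genes and 3 other ligands that were tested, 0 were called. The DNA-binding partner Rbpj itself had a blocked log2 fold change of -0.06 (95% interval -0.27 to 0.14).

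Fbxw7, part of the ubiquitin ligase that marks the Notch intracellular domain for destruction, showed the largest of the 4 falls. It stood at 140, 319 and 164 CPM with DMSO and at 85.6, 185 and 118 CPM with GSK-126. The GSK-126 library was the lower in each pair, with replicate 2 high in both groups. With the block Fbxw7 fell by 0.66 on the log2 scale (standard error 0.080, edgeR adjusted p = 1.7e-05). Numbl, a relative of the Notch inhibitor Numb, fell by 0.43 (edgeR adjusted p = 7.4e-04), from 204 ± 46.2 to 152 ± 42.7 CPM (SD, n = 3). Maml3, a Mastermind coactivator, fell by 0.51 (edgeR adjusted p = 0.0047). Neurl1a, a ubiquitin ligase that acts on ligands, fell by 0.41 (edgeR adjusted p = 0.0095).

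These 4 genes were highest in replicate 2 and lower with GSK-126 in every pair, and so was the granule neuron sum (DMSO 3281, 5132 and 3764 CPM; GSK-126 2659, 4038 and 2881 CPM), whose part in the falls was not tested. Fbxw7 and Numbl were called in each blocked fit that left out 1 pair and by DESeq2 with the block. Maml3 lost its call without replicate 2 (edgeR adjusted p = 0.0542) and Neurl1a without replicate 1 (edgeR adjusted p = 0.0849).

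**Figure D5:**
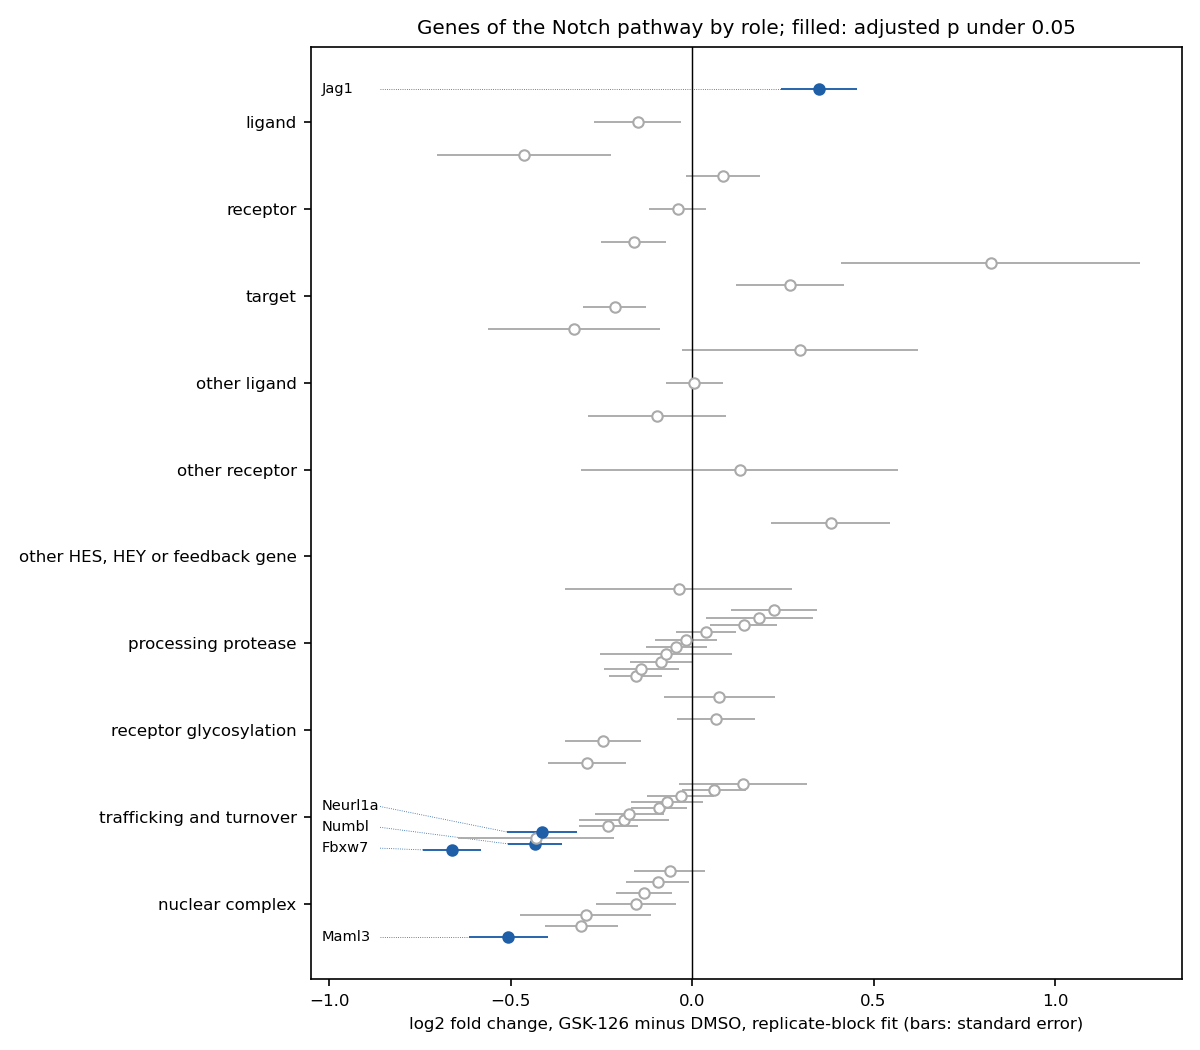
Log2 fold change with its standard error (x axis, edgeR fit with the replicate block) of the 10 genes and of the 39 tested genes of the wider list, by role; filled points have an adjusted p under 0.05. Jag1 (0.35) is the only filled point above 0, and Fbxw7, Maml3, Numbl and Neurl1a lie between -0.66 and -0.41.

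The other HES gene with substantial counts, Hes6, which encodes a HES protein that promotes neuronal differentiation, had 29.6, 15.5 and 16.7 CPM with DMSO and 26.4, 27.6 and 24.2 CPM with GSK-126. Replicate 1 ran opposite to the others, and the blocked log2 fold change was 0.38 (edgeR adjusted p = 0.176). Without replicate 1 it was 0.70 and was called (edgeR adjusted p = 0.0072). Dll3, Dlk1, Hes2, Hes3, Hes7, Heyl and Mfng did not pass the filter. Dlk1, a ligand-like imprinted gene, had 0 counts in every library, which allows up to 0.227 to 0.401 CPM per library (3 counts, counting error only).

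For the ligand, the receptor and the target with the highest mean CPM, the genes with the most similar course over the 6 libraries were looked up among 15610 genes, by Pearson's r of log2 CPM. Nearest to Jag1 were Flii, an actin-binding protein of the gelsolin family (r = 0.997), Arrdc1 (0.993) and Igf2bp2, an RNA-binding protein (0.992). Nearest to Notch2 were Megf10, a phagocytic receptor (0.996), Meltf (0.995) and Kcne1l (0.995). Nearest to Hey1 were Mtmr7, a lipid phosphatase (0.998), Kifc2, a kinesin (0.994) and Map3k12, a neuronal stress kinase (0.994). These values describe 6 libraries that share replicate numbers, and the best of so many genes is near 1 by selection.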

How the data were processed

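RNA-seq libraries of 3 DMSO and 3 GSK-126 cultures were grouped and numbered by their titles. The authors trimmed reads with Trimmomatic 0.38, aligned them to the mouse genome with STAR 2.7.2b (versions per the labels' processing notes) and counted them on exons with HTSeq, and they deposited raw read counts per gene without normalization. The strand setting was not given in the sources used here. Lines that name no gene (58.7% to 60.7% of listed reads) were left out. All 55341 symbols matched GENCODE M21, whose GRCm38 coordinates and exon lengths were used.

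Genes were kept by filterByExpr, scaled with TMM and tested with edgeR 4.0.16 in R 4.3.3 (quasi-likelihood test, no block, Benjamini-Hochberg over 16729 genes, threshold 0.05). p-values of the fit without the block measure the spread between cultures of pooled litters. Those of the blocked fit measure the spread of the treatment difference between the 3 pairs. The numbers pair the libraries, since all 3 same-number correlations of deviations from the group means passed 0.1 (0.513 to 0.663), and the biological coefficient of variation was 24.0% without the block and 9.74% with it. Both fits were tested on counts simulated from the blocked fit, with its replicate differences and spread, a setting that favours that fit. There the fit without the block called none of the changed genes. The fit with the block called 98 of 100 changes of 1 on the log2 scale and 54 of 100 changes of 0.5. It also called 9 unchanged genes. Genes with counts as low as those of Hey2 were not among the changed ones. DESeq2 1.42.0 served as an alternative. Other alternatives were other scalings, other filters and each library or pair left out. Apart from the limit for a gene with no counts, no interval from counts alone is given, as the fits add the spread between cultures.

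The members and lists were chosen with earlier results of these data known. Named were the 10 genes, pathway genes that passed in the fit without the block or the fit with it or had no counts, the most abundant gene of each marker list and those at 0, and the 3 genes most alike to each of 3 members with mean log2 CPM over 1. Genes named beside these, Hes6, Rbpj, Atoh1, Gli1, Mki67, Cldn5, the called markers and the untested pathway genes, were chosen after their values were seen. The result of 1 pathway gene is not reported here. Promoter windows came from RefSeq on GRCm38.p6.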

Additional observations from a re-analysis of the deposited data

How the results depend on the processing

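With all libraries and no block, every alternative scaling and filter and DESeq2 called 0 of the 10 genes and 0 of the pathway genes. Over all genes tested, calls higher and lower went from 0 and 0 to 9 and 1 with no filter, 20 and 1 with DESeq2, 561 and 851 with the replicate block, and 369 and 618 by DESeq2 with the replicate block. With a pair left out, the blocked fit gave 417, 337 and 558 higher and 671, 496 and 719 lower (replicates 1, 2 and 3 out). With each library left out and no block they stayed at 0 and 0. Of the 10 genes, the replicate block called 1 higher (Jag1), which was 0 to 1 with a pair left out and 0 by DESeq2. Of the pathway genes, the replicate block called 4 lower, DESeq2 with it 4, and the blocked fits with a pair left out 3 to 6, and 0 to 1 higher.

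Over 16 alternatives for each of the 10 genes, 8 fold changes turned sign, all of them in receptors and none past the threshold. With 1 library left out, Notch1 ranged from -0.38 to 0.065 and turned positive where DMSO replicate 1 (0.034) or GSK-126 replicate 2 (0.065) was missing. Notch2 ranged from -0.18 to 0.14 and turned positive where DMSO replicate 1 (0.065), DMSO replicate 3 (0.040) or GSK-126 replicate 2 (0.14) was missing, and in the blocked fit lacking replicate 3 (0.0081). Notch3 ranged from -0.088 to 0.34 and turned negative where DMSO replicate 2 (-0.088) or GSK-126 replicate 1 (-0.072) was missing. These settings hold fewer samples. The fold changes of the other 7 genes kept their direction but not their size: without 1 library Jag1 ranged from 0.14 to 0.60, Jag2 from -0.31 to -0.017, Dll1 from -0.70 to -0.19, Hes1 from 0.11 to 0.47, Hes5 from -0.50 to -0.15, Hey1 from -0.32 to -0.10 and Hey2 from 0.53 to 1.39, and in the blocked fit lacking a pair Hes5 ranged from -0.62 to -0.034. DESeq2 with the block gave no adjusted p for Hey2. Depth limits Hey2, Dll1 and Hes5, with 12, 32 and 42 counts in their lowest libraries.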
